A study of Mus musculus with 22 samples.

Results

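Colon tumours of 6 obese male FVB/N mice given sulindac were compared with colon tumours of 6 control male FVB/N mice. These 12 tumours were chosen by their titles and make up 12 of the 22 tumours in the series. Every tumour had been induced with azoxymethane, a carcinogen that targets the rodent colon, so both groups share this exposure. The obese mice given sulindac (Mouse_114, Mouse_124, Mouse_125, Mouse_129, Mouse_131 and Mouse_X) were fed a diet in which fat supplied 60% of the energy. The control mice (Mouse_17, Mouse_20, Mouse_26, Mouse_27, Mouse_30 and Mouse_32) were fed a diet in which fat supplied 10% of the energy, without sulindac. Diet and drug differ together between these groups and cannot be told apart here. The labels give no age, body weight, drug dose or treatment time, so obesity and leanness could not be checked. FVB/N is an inbred laboratory strain. The other 10 tumours came from 5 obese mice without the drug and 5 formerly obese mice moved to the low-fat diet, and they enter the results as part of the shared estimate of spread and as values set alongside.

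Sulindac is a non-steroidal anti-inflammatory drug whose active metabolite inhibits the cyclooxygenases, the enzymes that start the synthesis of prostaglandins from arachidonic acid. In the intestine, prostaglandin E2 signals through EP receptors and is known to sustain proliferation, blood vessel growth and inflammation in tumours. Sulindac and related drugs reduce intestinal polyps in people with inherited polyposis and in rodents, and effects that do not pass through the cyclooxygenases (on cyclic GMP breakdown, on the lipid-sensing PPAR receptors and on WNT signalling) have been described in cultured cells. Diet-induced obesity, in turn, is known for altered lipid supply, adipokines and inflammation. The comparison asks how far treated tumours of obese mice differ from untreated tumours of mice on the low-fat diet.

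Expression was measured with Clariom S arrays, on which each probe set represents a gene, and levels were read as log2 units between 3.34 and 19.46. A difference of 1 on this scale is a doubling, if the base is indeed 2. Array medians lay between 6.68 and 6.83, and correlations between the 12 arrays lay between 0.956 and 0.986. Control Mouse_26 lay farthest out on the first principal component (24.2% of the variance) and obese sulindac Mouse_X on the second (14.5%). Both arrays were kept, and results were also computed without this pair. Epithelial markers were high in every tumour. Epcam lay between 16.73 and 17.43 in obese sulindac tumours and between 16.67 and 17.37 in control tumours, and Cdh1 between 17.34 and 17.76 in obese sulindac tumours and between 17.50 and 17.92 in control tumours. The intestinal factor Cdx2 was low in some tumours of both groups, with a range of 5.92 to 11.93 in obese sulindac tumours and 7.11 to 13.64 in control tumours. These are bulk tumours, in which fewer cells of a type and less RNA per cell cannot be told apart.

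No gene passed the test between obese sulindac and control tumours. With limma and Benjamini-Hochberg adjustment, 0 of 22203 probe sets (0%) reached an adjusted p under 0.05, and the smallest adjusted p was 0.450. An unadjusted p under 0.05 was reached by 1473 probe sets (6.63%), of which 691 (3.11%) lay higher and 782 (3.52%) lay lower in obese sulindac tumours. A share of 0.05 of all probe sets is 1110. When each array was centred on its median, the split at that p was 457 higher and 1049 lower, and with quantile normalization it was 601 higher and 899 lower. The balance of directions therefore differed between scalings, and the median difference over all probe sets was 0.0017 log2 units as deposited, -0.037 with median centring and -0.0077 with quantile normalization. All 6 obese sulindac tumours lay above every control tumour for 30 probe sets (0.135%) and below every control tumour for 36 (0.162%). For values without ties, a share of 0.00216 of the 924 divisions of 12 tumours gives full separation in 1 direction or the other. The group label accounted for 9.06% of the variance over all probe sets, against a mean of 9.09% over the 924 ways to divide the 12 tumours 6 and 6 (exact permutation p = 0.420). Within groups, the mean variance per probe set was 0.256 in obese sulindac tumours and 0.283 in control tumours (log2 ratio -0.14, exact permutation p = 0.701, two-sided). Without control Mouse_26 that log2 ratio was 0.19. Every gene named in what follows missed the adjusted threshold, so the words higher and lower refer to group means.

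**Figure D1:**
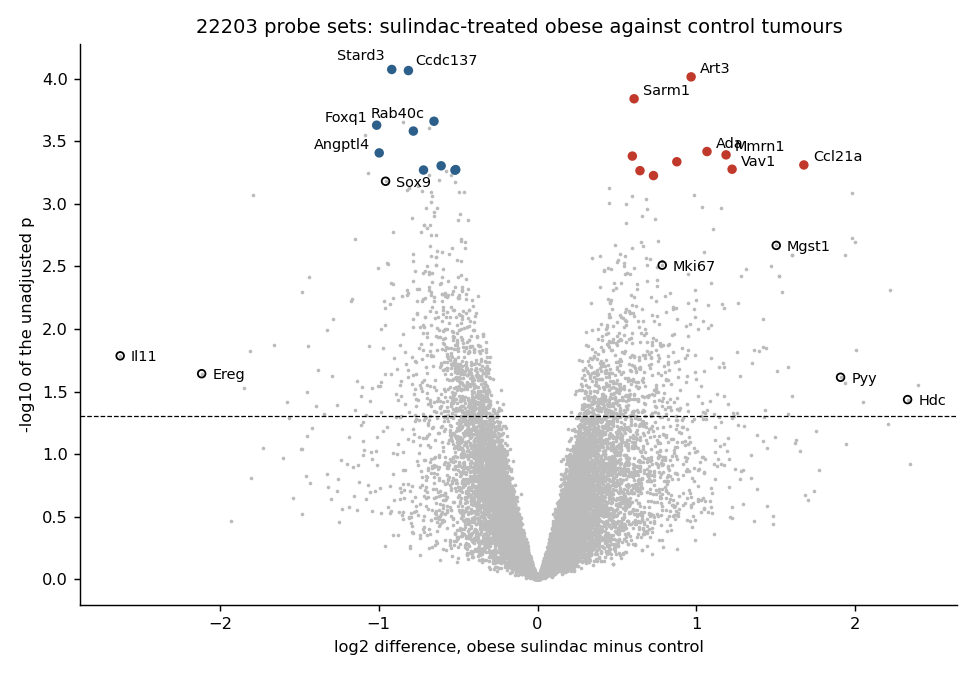
Each grey point is 1 of 22203 probe sets, placed by its log2 difference (obese sulindac minus control, horizontal) and by -log10 of its unadjusted p (vertical); the dashed line marks a p of 0.05, from the limma fit. Red and blue points are the 10 genes with the smallest p in each direction and open circles mark other genes described in the text. The smallest p values, for Stard3, Ccdc137 and Art3, lie near 1e-04, and the largest distances from 0 among the marked genes belong to Il11 on the left and Hdc on the right.

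The 10 named genes with the smallest p among those lower in obese sulindac tumours included a cholesterol transporter, an inhibitor of lipoprotein lipase, 3 transcription factors and an RNA-modifying enzyme. Stard3, a cholesterol-transport protein of late endosomes, had lowest, median and highest levels of 10.64, 11.40 and 11.43 in obese sulindac tumours, against 11.72, 12.13 and 12.61 in control tumours. All 6 obese sulindac tumours lay below every control tumour. The difference was -0.92 ± 0.19 log2 units (± standard error, n = 6 each, exact permutation p = 0.00216, the smallest these 924 divisions can give, limma adjusted p = 0.450). Foxq1, a forkhead transcription factor, had 9.10, 9.57 and 10.18 in obese sulindac tumours, against 10.25, 10.51 and 11.22 in control tumours. The groups did not overlap, and the mean difference was -1.01 ± 0.23. Angptl4, a secreted inhibitor of lipoprotein lipase and a PPAR target, had 6.16, 7.04 and 7.70 in obese sulindac tumours, against 7.58, 7.99 and 8.67 in control tumours. Here 5 of 6 obese sulindac tumours lay below all controls, and Mouse_114 at 7.7 reached into the control range. The Angptl4 difference was -1.0 ± 0.24 (exact permutation p = 0.00649).

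Irf3, which encodes a transcription factor that switches on interferon genes after viral or DNA sensing, ranged over 9.23 to 9.80 in obese sulindac tumours and 9.90 to 10.97 in control tumours, with no overlap. Its difference was -0.72 ± 0.18. Mettl3, the catalytic subunit of the enzyme that methylates adenosines in mRNA, ranged over 9.38 to 9.81 in obese sulindac tumours and 9.85 to 10.44 in control tumours and also did not overlap (difference -0.61 ± 0.15). The groups were likewise apart for Rab40c, a Rab family GTPase, at 8.58 to 9.25 in obese sulindac tumours and 9.39 to 9.71 in control tumours. The zinc finger factor Zbtb14 had a median of 8.21 in obese sulindac tumours and 9.25 in control tumours, with 1 tumour of each group (9.01 in obese sulindac Mouse_114 and 8.46 in control Mouse_27) lying toward the other group and 4 of 6 treated tumours below all controls. Ccdc137 and Serf2 differed by -0.81 and -0.52, each with 5 of 6 obese sulindac tumours below all controls. Fthl17e, a ferritin heavy chain-like gene of a multigene family, differed by -0.52 at levels of 3.83 to 4.29 in obese sulindac tumours and 4.32 to 5.05 in control tumours, all below the array medians.

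The 10 genes on the other side included 3 linked to blood cells and lymphatic vessels. Ada, adenosine deaminase of purine metabolism, had lowest, median and highest levels of 7.74, 8.23 and 9.02 in obese sulindac tumours, against 7.04, 7.15 and 7.49 in control tumours. Every obese sulindac tumour lay above every control tumour, and the difference was 1.07 ± 0.25 (exact permutation p = 0.00216). Ccl21a, a chemokine made by lymphatic endothelium that draws in cells bearing CCR7, had 8.48, 9.65 and 10.58 in obese sulindac tumours, against 6.94, 8.06 and 8.86 in control tumours. Its difference of 1.68 ± 0.41 was the largest of these 20 genes, with 5 of 6 treated tumours above all controls. Near-identical copies of this chemokine exist, and the probe sets named Ccl21b and Ccl21c held values identical to each other, with a difference of 1.61, so the copies cannot be separated. Mmrn1, multimerin, a protein of platelets and endothelium, had 6.65, 7.47 and 7.79 in obese sulindac tumours, against 5.10, 6.22 and 6.94 in control tumours. The groups overlapped, with 4 of 6 treated tumours above every control tumour, and the difference was 1.19 ± 0.28. Vav1, a guanine nucleotide exchange factor of blood cells, had 8.65, 9.78 and 10.01 in obese sulindac tumours, against 7.33, 8.47 and 9.0 in control tumours. Only Mouse_129, at 8.65, lay within the control range, and the difference was 1.23 ± 0.30.

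Pim1, a kinase induced by cytokines, was the brightest gene of this group, at 11.72 to 12.84 in obese sulindac tumours and 10.75 to 12.14 in control tumours (difference 0.88 ± 0.21). Sarm1, an enzyme that breaks down NAD during axon degeneration, and Gnat1, the transducin subunit of rod cells, did not overlap between groups, but their highest levels were 4.90 and 5.15, below all array medians. Art3, of the ADP-ribosyltransferase family, ranged over 5.86 to 7.09 in obese sulindac tumours and 5.03 to 5.86 in control tumours, so the groups touched at 5.86 (difference 0.97 ± 0.20). Ankrd22 and the axonemal dynein chain gene Dnaic1 differed by 0.65 and 0.73 with 5 of 6 treated tumours above all controls.

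**Figure D2:**
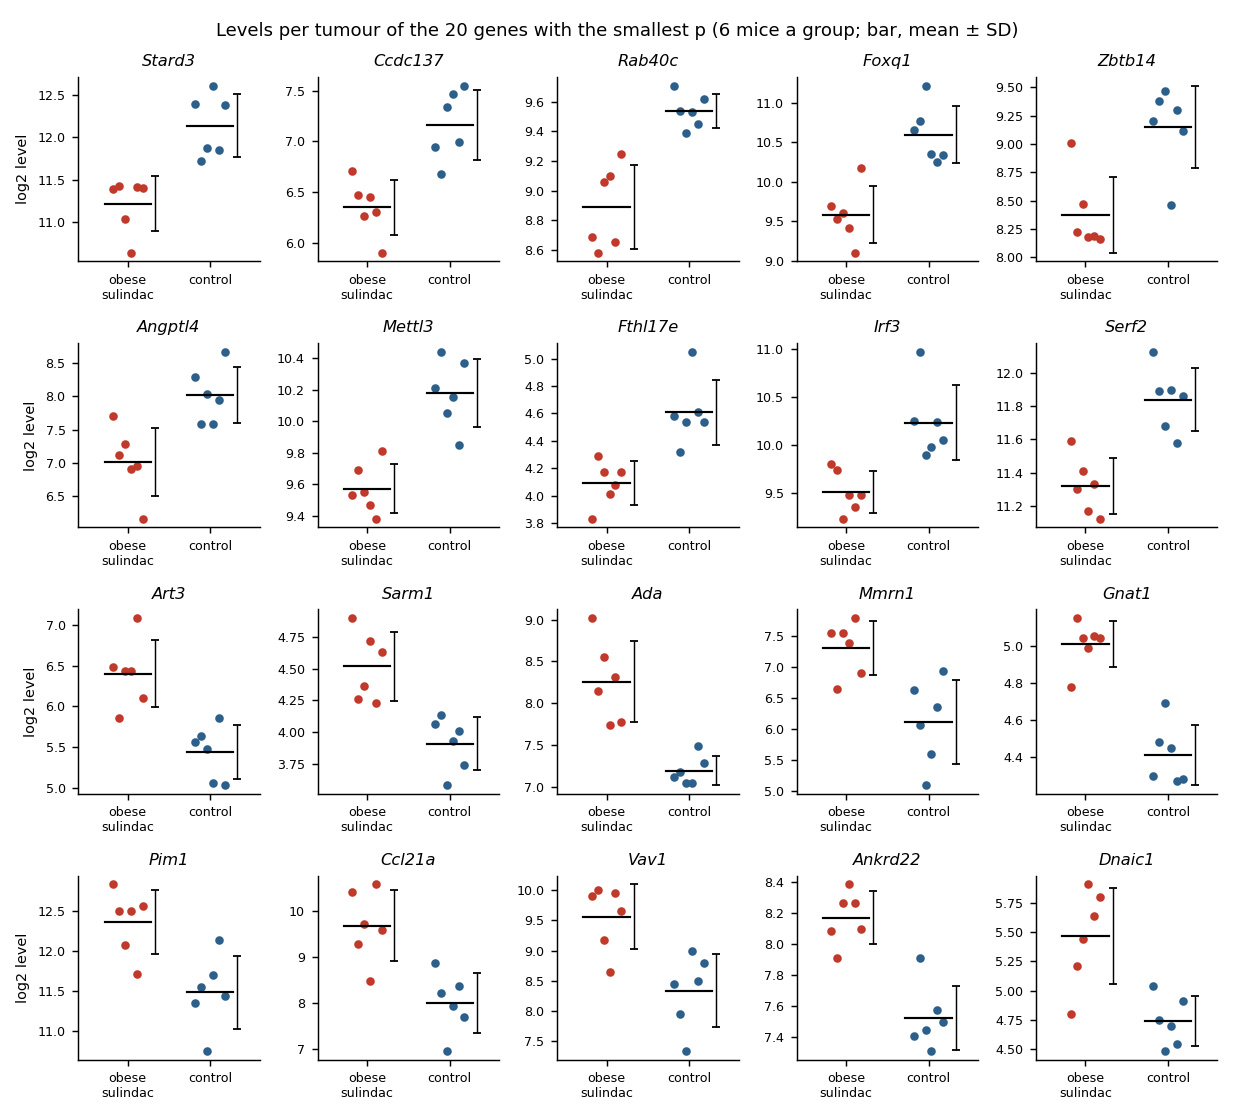
Deposited log2 level (vertical) of the 20 genes with the smallest p, the 10 lower genes in the upper 2 rows and the 10 higher genes in the lower 2 rows; each point is 1 tumour, obese sulindac (red) left of control (blue), with a bar at the mean and a whisker of ± 1 SD, n = 6 each. Stard3, Foxq1, Irf3, Mettl3, Rab40c, Fthl17e, Ada, Sarm1 and Gnat1 show no overlap between groups, while for Zbtb14 the groups overlap.

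Set beside all 4 groups, these genes followed more than 1 pattern. Angptl4 averaged 7.02 ± 0.51 in obese sulindac tumours, 7.91 ± 0.22 in obese tumours, 7.30 ± 0.47 in formerly obese tumours and 8.02 ± 0.42 in control tumours (mean ± SD, n = 6, 5, 5 and 6). Obese tumours without the drug thus lay close to the controls. Ccl21a and Mmrn1 were alike in this, at 9.67 and 7.30 with sulindac, 7.75 and 5.98 in obese tumours, 8.20 and 6.0 in formerly obese tumours and 8.0 and 6.12 in controls. Rab40c differed, with means of 8.89 in obese sulindac tumours, 8.90 in obese tumours, 8.90 in formerly obese tumours and 9.54 in control tumours. Foxq1 averaged 9.59 in obese sulindac, 10.44 in obese, 9.79 in formerly obese and 10.60 in control tumours. The genes were chosen by their distance from the control arrays, and no difference between these patterns was tested.

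**Figure D3:**
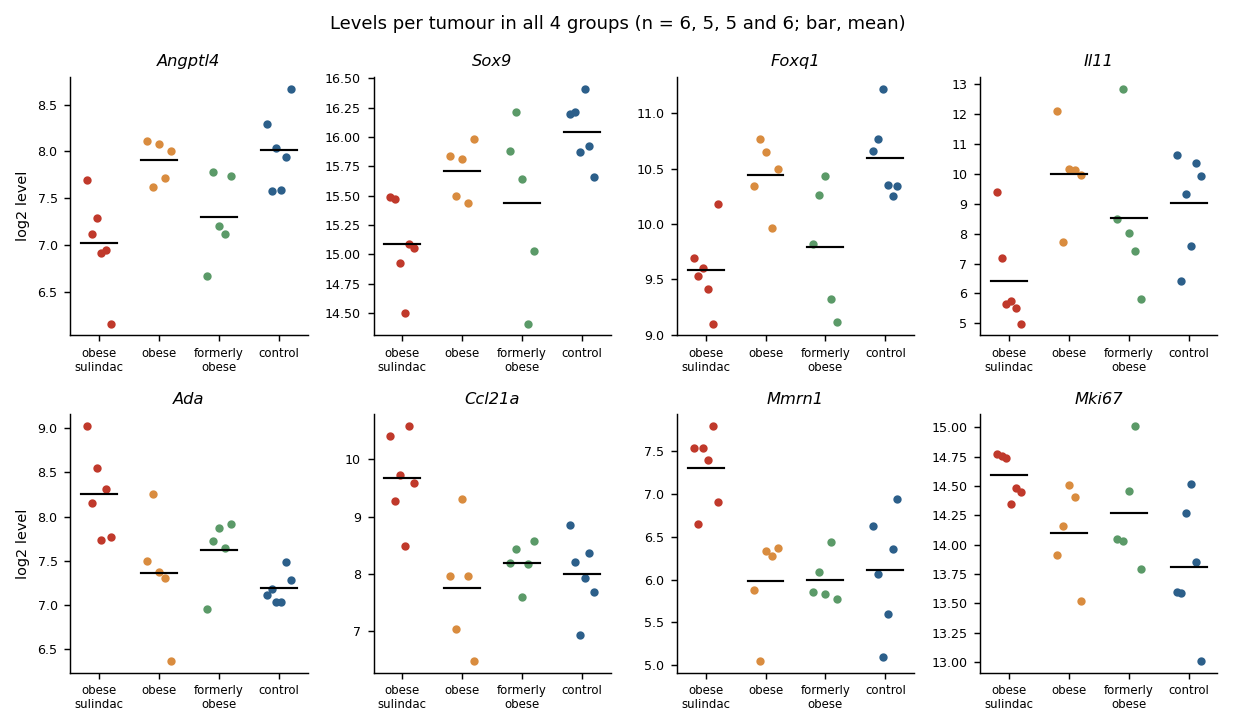
Deposited log2 level (vertical) of 8 genes in every tumour of the 4 groups, with obese sulindac at the left and control at the right; points are tumours and bars are means (n = 6, 5, 5 and 6). For Angptl4, Ada, Ccl21a and Mmrn1 the obese tumours without sulindac sit near the controls, and for Sox9 they lie between both.

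Of the 12 measured genes of prostaglandin synthesis, the drug's own pathway, 0 reached an unadjusted p under 0.05, against 6.63% of all probe sets. In a list of 12, a count of 0 lies near that share. Of the cyclooxygenases and prostaglandin synthases, 5 of 12 measured members had a higher mean in obese sulindac tumours, with a median difference of -0.049 (-0.14 without control Mouse_30 and -0.020 without control Mouse_17), against 50.2% higher, 49.7% lower and a median of 0.002 over all probe sets. Ptgs2, the inducible cyclooxygenase, had lowest, median and highest levels of 7.68, 9.0 and 11.69 in obese sulindac tumours, against 8.21, 10.03 and 11.09 in control tumours. Mouse_114 held the highest value of all 12 tumours, the groups overlapped, and the difference was -0.72 ± 0.73 (95% interval -2.25 to 0.80); it was -1.25 without that mouse. The constitutive cyclooxygenase gene Ptgs1 is not analysed here. Ptges, the inducible prostaglandin E synthase, differed by -0.41 ± 0.33, the carbonyl reductase Cbr1 by -0.24 and the co-chaperone and synthase Ptges3 by -0.24. Among genes of prostaglandin breakdown, transport and reception, 6 of 14 had a higher mean and the median difference was -0.018 (-0.051 without control Mouse_17 and 0.10 without control Mouse_26). Ptger2, the EP2 receptor for prostaglandin E2, had 5.33, 6.35 and 6.86 in obese sulindac tumours, against 5.02, 5.71 and 6.06 in control tumours. It was higher than all controls in 4 of 6 treated tumours, at a difference of 0.67 ± 0.23 (exact permutation p = 0.0455). Ptgr1, a reductase that inactivates leukotriene B4 and prostaglandin metabolites, differed by 1.15 ± 0.55. Hpgd, which degrades prostaglandin E2, ranged over 8.81 to 13.63 in obese sulindac tumours and 10.0 to 14.69 in control tumours, and its difference of -0.35 changed sign among the fits that each left out 1 mouse (-0.78 to 0.26).

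Of the leukotriene and lipoxygenase genes, 10 of 12 had a higher mean (median 0.22; 0.019 without control Mouse_26 and 0.29 without control Mouse_32; 8 of 12 higher with median centring). Lta4h, which makes leukotriene B4, went the other way, with 9.61 to 11.86 in obese sulindac tumours, 11.08 to 12.25 in control tumours and a difference of -0.59 ± 0.28. Alox5ap, the activator of 5-lipoxygenase, differed by 0.44, the leukotriene C4 synthase Ltc4s by 0.31 and the leukotriene receptor Cysltr1 by 0.47. Alox15 differed by -0.46 ± 0.76.

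Targets of the PPAR receptors held 4 members lower at an unadjusted p under 0.05 and 0 higher, out of 22 measured; over all probe sets 3.52% were lower at that p. The list as a whole was near balance, with 9 of 22 higher and a median of -0.049, and without obese sulindac Mouse_114 the median was 0.043. Beside Angptl4, these members were Acot1, a thioesterase that frees fatty acids from coenzyme A, and the peroxisomal thiolases Acaa1a and Acaa1b. Acot1 had 8.61, 9.36 and 9.93 in obese sulindac tumours, against 9.85, 10.35 and 11.98 in control tumours. In 5 of 6 treated tumours it lay below all controls (difference -1.17 ± 0.38, exact permutation p = 0.00433). Acaa1a ranged over 8.95 to 9.73 in obese sulindac tumours and 9.63 to 10.20 in control tumours, and Acaa1b over 6.13 to 6.72 in obese sulindac tumours and 6.58 to 7.60 in control tumours. The groups overlapped for both, with 5 of 6 and 3 of 6 treated tumours below all controls. Acot1 belongs to a family with similar copies, which probe sets may not separate. Plin2 of lipid droplets differed by -0.36 ± 0.19. The 9 higher members of the PPAR list included Cd36 at 0.67, Lpl at 0.615 and Pparg at 0.485. Pdk4, which restrains glucose oxidation, differed by 0.013; Mouse_X stood at 13.82 beside a group median of 7.92, and without that mouse the difference was -1.01. Cpt1a, the gate of mitochondrial fatty acid import, differed by -0.16. Of the fatty acid oxidation enzymes 9 of 21 were higher (median -0.022; -0.10 without obese sulindac Mouse_129 and 0.049 without control Mouse_20; 6 of 21 higher with median centring), with Cpt2 lowest in p at -0.48 ± 0.19, and of fatty acid synthesis genes 10 of 16 (median 0.059; -0.021 without control Mouse_26 and 0.16 without control Mouse_27; 8 of 16 higher with median centring), with Fads1, a desaturase, at 0.88 and Dgat1 of triglyceride synthesis at 0.29.

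Cholesterol genes were higher as a group: 15 of 17 members, median 0.21, against 50.2% of all probe sets. The median lay between 0.089 without obese sulindac Mouse_129 and 0.30 without control Mouse_30. Fdps, which makes farnesyl pyrophosphate, had 9.20, 9.55 and 9.91 in obese sulindac tumours, against 8.51, 9.01 and 9.41 in control tumours. In 4 of 6 treated tumours it exceeded all controls, and the difference was 0.50 ± 0.22. Sqle, squalene epoxidase, differed by 0.57 ± 0.28, the feedback regulator Insig1 by 0.57 ± 0.29 and the demethylase Cyp51 by 0.38 ± 0.19. Members of a list vary together across tumours, so these counts are not independent observations. The lowest and highest mean level of the list were 11.85 to 12.77 in obese sulindac tumours and 11.69 to 12.50 in control tumours, which overlap.

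WNT target and stem cell genes mostly lay lower in obese sulindac tumours, in 12 of 16 measured members with a median of -0.19, and 4 of them reached an unadjusted p under 0.05 (3.52% of all probe sets did so in that direction). Azoxymethane tumours are known to carry an active WNT pathway, through which beta-catenin turns these genes on. Sox9, a transcription factor of crypt progenitors, had lowest, median and highest levels of 14.50, 15.07 and 15.49 in obese sulindac tumours, against 15.66, 16.06 and 16.41 in control tumours. All 6 treated tumours lay below every control tumour, and the difference was -0.96 ± 0.24 (exact permutation p = 0.00216, limma adjusted p = 0.450). Cd44, a hyaluronan receptor, had 14.62, 15.42 and 15.92 in obese sulindac tumours, against 15.65, 16.09 and 16.67 in control tumours, with 4 of 6 treated tumours below all controls (difference -0.77 ± 0.24). Ascl2, a master regulator of intestinal stem cells, had 7.23, 8.14 and 8.42 in obese sulindac tumours, against 8.05, 8.79 and 9.15 in control tumours. The groups overlapped and the difference was -0.71 ± 0.28. Myc differed by -0.49 ± 0.23. Lgr5, the stem cell receptor, spread over 9.18 to 12.08 in obese sulindac tumours and 8.04 to 14.12 in control tumours, with a difference of -0.79 ± 0.87, and Axin2, a feedback inhibitor of the pathway, differed by -0.16 ± 0.29. The 4 higher members of the list were Apcdd1 at 0.45, Sp5 at 0.19, Lef1 at 0.072 and Prom1 at 0.037. The list median was -0.47 without obese sulindac Mouse_X and -0.076 without obese sulindac Mouse_125. Sox9 averaged 15.09 in obese sulindac, 15.71 in obese, 15.43 in formerly obese and 16.05 in control tumours.

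Genes of fetal, regenerative and foregut programmes were lower in 14 of 19 members (median -0.18; -0.24 without control Mouse_30 and -0.009 without control Mouse_17), led by Il11 and Ereg. Il11, a cytokine that stromal cells release to sustain epithelial repair, had 4.99, 5.69 and 9.40 in obese sulindac tumours, against 6.43, 9.63 and 10.62 in control tumours. In 4 of 6 treated tumours it lay below all controls, and in Mouse_114 it lay at 9.40, inside the control range. The difference of -2.63 ± 1.01 was the most negative among the named genes (exact permutation p = 0.026, adjusted p = 0.704). Ereg, the EGF receptor ligand epiregulin, had 7.80, 10.59 and 11.76 in obese sulindac tumours, against 9.84, 12.58 and 13.29 in control tumours. The groups overlapped, and the difference was -2.12 ± 0.86. Clu, a marker of reviving stem cells, differed by -0.70 ± 0.51 and the gastric gene Gkn1 by -0.41 ± 0.26. Among EGF receptor ligands and receptors 7 of 12 were lower (median -0.15; -0.25 without obese sulindac Mouse_X and -0.016 without obese sulindac Mouse_131; 3 of 12 higher with median centring): betacellulin (Btc) differed by -0.57 ± 0.28, while transforming growth factor alpha (Tgfa) differed by 0.57 ± 0.29.

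The promoter of Il11 is shown because this gene had the most negative difference named. The 250 bases before the second of its 2 RefSeq starts (GRCm38.p6, chr7:4778142-4778391, minus strand) hold 1 match to the AP-1 motif TGANTCA, searched on both strands and printed in capitals from base 153. The 250 bases before its other start (chr7:4782858-4783107) hold 0 matches.
Il11: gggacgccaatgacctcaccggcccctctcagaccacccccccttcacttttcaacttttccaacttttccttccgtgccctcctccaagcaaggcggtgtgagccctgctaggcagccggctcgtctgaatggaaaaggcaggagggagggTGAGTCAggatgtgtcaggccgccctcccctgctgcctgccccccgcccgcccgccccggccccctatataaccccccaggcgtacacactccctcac
The motif occurs in 7.81% of the 32851 mouse promoters of 300 bases in the RefSeq table in 3 of 14 promoters (21.4%) of the fetal, regenerative and foregut list, which holds Il11, in 6 of 14 (42.9%) of the matrix metalloproteinase list, in 5 of 18 (27.8%) of the interferon list and in 0 of 17 of the cell cycle list. A match describes these letters and not a bound site.

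Matrix metalloproteinases, whose transcription is known to respond to AP-1, were divided: 7 of 15 members of the list were higher, the median was -0.042, and single mice moved it between -0.30 without control Mouse_20 and 0.14 without obese sulindac Mouse_X. Mmp10, a stromelysin, ranged over 10.82 to 15.11 in obese sulindac tumours and 12.21 to 14.97 in control tumours. Of the treated tumours 4 lay below all controls and 1 above them, and the difference was -1.40 ± 0.64. Plau, the urokinase plasminogen activator, differed by -0.99 ± 0.47, with 4 of 6 treated tumours below all controls. The inhibitor Timp3 differed by -0.77 ± 0.37 and the gelatinase Mmp9 of neutrophils by -0.70 ± 0.53. The gelatinase Mmp2 of fibroblasts lay higher instead, at 10.90, 11.42 and 12.13 in obese sulindac tumours, against 10.11, 10.75 and 11.19 in control tumours, with 5 of 6 treated tumours above all controls and a difference of 0.72 ± 0.27.

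Some cell cycle genes had higher and others lower means in obese sulindac tumours, and 0 of them passed the adjusted threshold in limma. Of the cell cycle list, 14 of 21 members had a higher mean (median 0.24), against 50.2% of all probe sets. An unadjusted p under 0.05 was reached by 2 of these higher members, against 3.11% of all probe sets in that direction. Without obese sulindac Mouse_X and control Mouse_26, 19 of 21 members were higher and the median was 0.48. Leaving out 1 mouse gave a median of 0.11 without obese sulindac Mouse_131 and 0.44 without obese sulindac Mouse_X. Mki67, the gene of the proliferation marker Ki-67, had lowest, median and highest levels of 14.35, 14.61 and 14.77 in obese sulindac tumours, against 13.01, 13.73 and 14.52 in control tumours. The treated tumours lay close together, inside the upper part of the wider control range and above it, and the difference was 0.79 ± 0.24 (exact permutation p = 0.00866, limma adjusted p = 0.588). Ccna2, cyclin A2, had 12.27, 12.40 and 12.52 in obese sulindac tumours, against 10.65, 11.64 and 12.53 in control tumours. The treated range lay inside the control range, with a difference of 0.77 ± 0.30. The mitotic kinase gene Aurkb differed by 0.65 ± 0.31, cyclin B2 (Ccnb2) by 0.63 ± 0.33 and survivin (Birc5) by 0.52 ± 0.31. All 7 lower members of the list are given here, outside the rule for named genes: the sliding clamp gene Pcna differed by -0.16, the replicative helicase genes Mcm2, Mcm3, Mcm4 and Mcm5 by -0.078, -0.052, -0.21 and -0.11, cyclin E2 (Ccne2) by -0.41 and the transcription factor E2f1 by -0.35, all with an unadjusted p above 0.05. Mki67 averaged 14.59 in obese sulindac, 14.10 in obese, 14.27 in formerly obese and 13.81 in control tumours.

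The Mki67 promoter is shown for the element through which the DREAM complex is known to control mitotic genes, the cell cycle homology region. The letters TTTGAA occur at bases 135 and 153 of the 250 bases before its start (GRCm38.p6, chr7:135716380-135716629, minus strand), in capitals.
Mki67: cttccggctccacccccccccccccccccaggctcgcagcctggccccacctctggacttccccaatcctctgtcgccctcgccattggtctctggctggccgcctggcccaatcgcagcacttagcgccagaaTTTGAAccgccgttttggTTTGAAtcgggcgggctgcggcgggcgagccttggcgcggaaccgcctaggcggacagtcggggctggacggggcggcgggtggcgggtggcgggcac
On either strand, 8 of 17 promoters of the cell cycle list (47.1%) hold this motif, against 17.9% of the 32851 promoters and 16.7% to 21.4% in the other 3 lists searched.

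Targets of p53 and apoptosis genes were higher in 8 of 21 (median -0.082; -0.17 without control Mouse_27 and 0.009 without control Mouse_17), among them the BH3-only gene Pmaip1 at 0.82 ± 0.45 and the survival gene Mcl1 at 0.22 ± 0.14, while the stress sensor Sesn2 stood at -0.51 ± 0.28. The cell cycle inhibitor Cdkn1a differed by -0.34 ± 0.24 and the survival gene Bcl2l1 by -0.30 ± 0.19. Immediate early genes were even (8 of 16, median -0.060; -0.11 without control Mouse_26 and 0.10 without control Mouse_30), with the phosphatase Dusp1 at 0.71 ± 0.46, the mRNA decay factor Zfp36 at 0.48, Atf3 at 0.37 and Btg2 at -0.50. Of the polyamine genes 5 of 9 were higher (median 0.005; -0.18 without control Mouse_17 and 0.068 without obese sulindac Mouse_X), and 3 of 9 after median centring or quantile normalization. The ornithine decarboxylase gene Odc1 differed by -0.22, the polyamine acetylase Sat1 by 0.10, the oxidase Smox by -0.58 ± 0.27, the synthase Srm by -0.45, and the antizyme Oaz2 and antizyme inhibitor Azin1 by 0.23 and -0.22. Among serine and one-carbon genes 11 of 14 were higher (median 0.083; -0.070 without control Mouse_20 and 0.19 without control Mouse_26; 8 of 14 higher with median centring), with Psph of serine synthesis at 0.43 ± 0.15, Psat1 at 0.25, Mthfd1l at 0.27 and Mthfd1 at -0.20.

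Interferon-induced genes had a higher mean in obese sulindac tumours in 21 of 21 members, with a median of 0.46, against 50.2% and 0.002 over all probe sets. An unadjusted p under 0.05 was reached by 0 of these members, against 3.11% of all probe sets in that direction. The whole list moved between tumours of both groups: its mean level ranged over 7.47 to 9.96 in obese sulindac tumours, lowest in Mouse_X, and over 6.81 to 9.89 in control tumours, lowest in Mouse_26 and highest in Mouse_30. The median was 0.21 without control Mouse_26 and 0.76 without control Mouse_30, and 20 of 21 members were higher after median centring or without Mouse_X and Mouse_26. Gbp2, a guanylate-binding protein that attacks intracellular microbes, had 10.02, 11.42 and 13.11 in obese sulindac tumours, against 8.32, 9.77 and 12 in control tumours. The groups overlapped, with 2 of 6 treated tumours above all controls, and the difference was 1.43 ± 0.69. The related GTPase gene Iigp1 differed by 1.45 ± 0.81, Ifit2, an inhibitor of viral translation, by 0.85 ± 0.53 and Ciita, the activator of MHC class II genes, by 0.71 ± 0.43. The gene Irf3, described above, lay lower in the same tumours.

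Promoters of Gbp2 and Isg15 are shown because they carry the sequence through which interferon signalling is known to act, the interferon-stimulated response element. Isg15, which encodes a ubiquitin-like protein, was chosen for its matches after its values were seen, and it differed by 0.46, with an unadjusted limma p above 0.05. The motif, searched as GAAA, any 2 bases and GAAA on both strands, is in capitals: Gbp2 (GRCm38.p6, chr3:142620413-142620662, plus strand) has 1 match, on the opposite strand, and Isg15 (chr4:156200819-156201068, minus strand) has 3 that overlap.
Gbp2: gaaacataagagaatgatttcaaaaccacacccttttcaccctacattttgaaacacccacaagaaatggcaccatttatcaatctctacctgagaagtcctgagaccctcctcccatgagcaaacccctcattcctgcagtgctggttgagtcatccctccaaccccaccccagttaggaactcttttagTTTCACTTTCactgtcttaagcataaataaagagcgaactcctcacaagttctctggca
Isg15: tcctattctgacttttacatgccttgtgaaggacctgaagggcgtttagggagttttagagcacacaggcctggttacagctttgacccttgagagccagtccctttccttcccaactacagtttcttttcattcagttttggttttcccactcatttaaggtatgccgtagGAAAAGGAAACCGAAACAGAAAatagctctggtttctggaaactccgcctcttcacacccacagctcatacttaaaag
Of 18 promoters of the interferon list 9 (50%) hold the motif, against 3.44% of the 32851 promoters and 0% to 7.14% in the other 3 lists searched. The Gbp2 promoter also holds the AP-1 and cell cycle letters given above, outside this match.

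Inflammatory cytokines and NF-kB targets were higher in 18 of 24 (median 0.32; 0.10 without obese sulindac Mouse_114 and 0.79 without obese sulindac Mouse_X). The spread among tumours was wide, with list levels of 6.78 to 9.98 in obese sulindac tumours, from Mouse_X to Mouse_114, and 6.93 to 9.16 in control tumours. The neutrophil-attracting chemokine Cxcl2 ranged over 8.25 to 15.32 in obese sulindac tumours and 6.83 to 13.09 in control tumours, with a difference of 1.94 ± 1.06. Its relative Cxcl3 differed by 1.35 ± 0.79, the chemokine Ccl4 by 1.07 ± 0.50 and the NF-kB feedback inhibitor Tnfaip3 by 0.93 ± 0.55; without Mouse_114 the differences of Cxcl3 and Ccl4 were 0.72 and 0.63. For 4 classical cytokines and chemokines the difference was smaller than its standard error. Il1b differed by 0.21 ± 0.86, Il6 by -0.33 ± 0.55, Tnf by 0.34 ± 0.49 and Cxcl1 by -0.12 ± 0.67, and leaving out single mice turned the sign for Il1b (-0.48 to 0.87) and Cxcl1 (-0.52 to 0.26).

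Antimicrobial genes of the epithelium had the highest list median, 0.66, with 14 of 17 members higher (0.36 without control Mouse_26 and 0.95 without control Mouse_30). Retnlb, a goblet cell protein that acts on bacteria, had 9.51, 11.42 and 12.46 in obese sulindac tumours, against 7.44, 9.48 and 11.34 in control tumours. The groups overlapped at a difference of 1.75 ± 0.90. Saa3, serum amyloid A3, had 9.07, 10.39 and 12.45 in obese sulindac tumours, against 8.05, 9.17 and 9.85 in control tumours, with 4 of 6 treated tumours above all controls and a difference of 1.24 ± 0.60. Obese tumours without sulindac averaged 11.24 for Saa3, above the 10.32 of treated obese tumours and the 9.08 of controls. The lectin Reg3g spread over 8.84 to 14.21 in obese sulindac tumours and 5.78 to 17.20 in control tumours, and its difference of 1.36 ± 1.40 lay within that spread. Saa2 and Dmbt1 differed by 0.57 and 0.62.

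Markers of immune cells had higher means in most lists. Macrophage and monocyte markers were higher in 16 of 16 (median 0.36; 0.20 without control Mouse_26 and 0.55 without obese sulindac Mouse_X), with the complement genes C1qc and C1qa at 0.57 ± 0.26 and 0.37 ± 0.28 and the receptors Cx3cr1 and Ccr2 at 0.51 and 0.58. Mean levels of that list were 9.13 to 10.74 in obese sulindac tumours and 8.96 to 10.52 in control tumours, so the groups overlapped. B and plasma cell markers were higher in 12 of 14 (median 0.42; 0.19 without obese sulindac Mouse_125 and 0.51 without obese sulindac Mouse_131); the antibody-joining gene Jchain ranged over 14.64 to 17.19 in obese sulindac tumours and 10.72 to 16.46 in control tumours, Tnfrsf17 of plasma cells differed by 0.45, Cd22 by 0.58 and Derl3 by -0.44. T and NK cell markers were higher in 12 of 15 but with a median of 0.10 (0.053 without obese sulindac Mouse_125 and 0.24 without control Mouse_30). Among them were the T cell receptor subunits Cd3e and Cd3g at 0.78 ± 0.65 and 0.73 ± 0.56, Nkg7 at 0.42 and Pdcd1 at 0.43. Without control Mouse_26 the Cd3e difference was 0.44. The 3 lower members of the T and NK cell list were Prf1 at -0.15, Gzmb at -0.067 and Ncr1 at -0.022. Neutrophil markers (11 of 17, median 0.35) moved with single tumours, and the median was 0.018 without obese sulindac Mouse_114 and 0.69 without obese sulindac Mouse_X. Stfa2l1, Clec4d and Ngp of that list differed by 1.0, 0.73 and 0.27. Its 6 lower members were Mmp9 at -0.70, Ltf at -0.48, Elane at -0.14, Camp at -0.10, Mmp8 at -0.042 and Mpo at -0.007. Mast cell markers (11 of 12, median 0.39) had a list median of 0.027 without obese sulindac Mouse_131 and 0.64 without obese sulindac Mouse_X. Hdc, the histamine-forming enzyme, reached 17.08 in obese sulindac Mouse_114, while the other obese sulindac tumours lay at or below 11.37 and control tumours between 7.32 and 12.40. Its difference of 2.33 ± 1.05 was 1.27 without that mouse. The mast cell proteases Mcpt1 and Mcpt2 differed by 1.10 ± 1.02 and 0.98 ± 0.94 and the IgE receptor gene Ms4a2 by 0.75. The part of cell composition in the differences of single genes such as Vav1 was not tested.

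**Figure D4:**
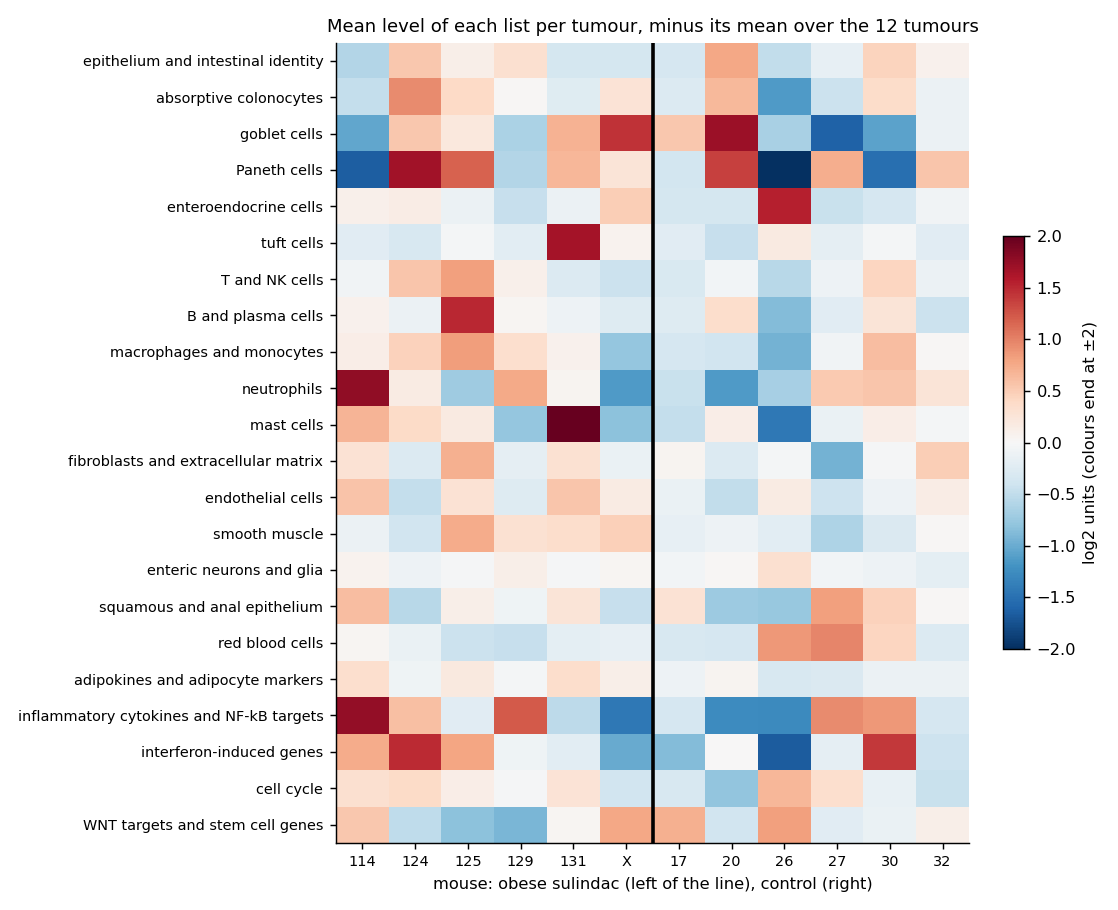
Colours give the mean log2 level of each list (rows: markers of cell types and 4 pathways) in each of the 12 tumours (columns, obese sulindac left of the line and control right), minus the list's mean over the 12 tumours. Single tumours stand out, such as Mouse_114 for neutrophil and inflammatory genes, Mouse_131 for tuft and mast cell genes, Mouse_125 for B and plasma cell genes and control Mouse_26 for enteroendocrine genes.

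Epithelial identity markers lay near balance: 6 of 15 were higher (median -0.068, and -0.11 without control Mouse_17 and 0.024 without control Mouse_30). The lower members included the tight junction gene Cldn3 at -0.37 ± 0.21, Vil1 of microvilli at -0.63 ± 0.28, Hnf4a at -0.39 and Cdh1 at -0.14. The 6 higher members were Cdx1 at 0.23, Gpa33 at 0.22, Krt8 at 0.18, Hnf4g at 0.11, Lgals4 at 0.083 and Cdh17 at 0.077. Markers of absorptive colonocytes were higher in 17 of 23, and in 13 of 23 without Mouse_X and Mouse_26. The median was 0.19, and 0.082 without obese sulindac Mouse_125 and 0.31 without obese sulindac Mouse_114. Among the higher members were Clca4b at 1.38 ± 0.72, the water channel Aqp4 at 1.62 ± 0.89 and the sodium channel subunit Scnn1g at 0.54. Others were the chloride exchanger Slc26a3 at 0.99 ± 1.01 and the carbonic anhydrase Car4 at 0.40 ± 1.07. The 6 lower members of the colonocyte list were Vil1 at -0.63, Slc9a3 at -0.34, Aqp8 at -0.11, Ceacam20 at -0.07, Slc51a at -0.013 and Cdhr5 at -0.005. Of the 23, only Vil1 reached an unadjusted p under 0.05 in limma, and 3.52% of all probe sets were lower at that p. Goblet cell genes (10 of 16, median 0.27; 0.023 without obese sulindac Mouse_X and 0.59 without control Mouse_20) had a median of -0.11 without Mouse_X and Mouse_26. Muc2, the main mucin, differed by 0.43 ± 0.58, Clca1 by 1.44 ± 1.24, Fcgbp by 1.10 ± 0.84 and Spink4 by 0.86 ± 0.82, all within a spread of several log2 units among tumours. The 6 lower members of the goblet cell list were Spdef at -0.57, Agr2 at -0.295, Ern2 at -0.20, Atoh1 at -0.083, Tff3 at -0.062 and Galnt12 at -0.018. Paneth cell genes were higher in 9 of 11 (median 0.48, and 0.054 without obese sulindac Mouse_125 and 1.05 without obese sulindac Mouse_114). Without Mouse_X and Mouse_26, 6 of 11 were higher, with a median of 0.21. The higher members included Ang4 at 1.70 ± 1.39, Defa24 at 0.48 and Defa20 at 0.20, whose probe set held values identical to another's. The 2 lower members were Mmp7 at -0.29 and Pla2g2a at -0.035.

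Enteroendocrine genes were split between directions (8 of 16, median -0.061; -0.22 without obese sulindac Mouse_X and 0.25 without control Mouse_26), and Pyy had the smallest p among them. Pyy, the gut hormone peptide YY of colonic L cells, had 9.81, 11.13 and 13.55 in obese sulindac tumours, against 8.61, 9.47 and 10.86 in control tumours. The groups overlapped, with 3 of 6 treated tumours above all controls, and the difference was 1.91 ± 0.79 (exact permutation p = 0.0346). Tac1, Cck and Sct, which encode substance P, cholecystokinin and secretin, differed by 0.80, 0.32 and -0.60. Tuft cell genes (9 of 12, median 0.44) stood high in obese sulindac Mouse_131, and the median was 0.073 without obese sulindac Mouse_131 and 0.47 without obese sulindac Mouse_124. Dclk1 and Rgs13 differed by 0.72 and 0.82, against 0.22 and 0.18 without that mouse, and Siglecf, also a marker of eosinophils, by 0.44 ± 0.16. Squamous genes, which would mark anal tissue, were even (9 of 15, median 0.035; -0.059 without control Mouse_26 and 0.11 without control Mouse_27; 7 of 15 higher with median centring), with Sbsn at 0.38, Lor at 0.17, Krt16 at 0.13 and Trp63 at 0.16. The 6 lower squamous genes included Dsg3 at -0.80, Krt15 at -0.51 and Krt4 at -0.28. Red blood cell genes were higher in 0 of 4 (median -0.26; -0.34 without control Mouse_32 and -0.10 without control Mouse_27), and in 1 of 4 without Mouse_X and Mouse_26, with Alas2 of haem synthesis at -1.26 ± 0.58, Epb42 at -0.32, Slc4a1 at -0.19 and Hemgn at -0.027.

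Smooth muscle markers lay higher in 14 of 15 members (median 0.32; 0.21 without obese sulindac Mouse_125 and 0.46 without control Mouse_32), of which 4 reached an unadjusted p under 0.05 (3.11% of all probe sets did in that direction). Actg2, the enteric smooth muscle actin, had 11.58, 12.20 and 12.54 in obese sulindac tumours, against 10.48, 11.45 and 11.83 in control tumours. In 5 of 6 treated tumours it exceeded all controls, with a difference of 0.93 ± 0.36 (exact permutation p = 0.00866). Lmod1, which nucleates actin filaments, ranged over 5.70 to 6.65 in obese sulindac tumours and 5.33 to 5.86 in control tumours, also with 5 of 6 above (difference 0.52 ± 0.25). The myosin light chain Myl9 and Synpo2 differed by 0.69 ± 0.30 and 0.94 ± 0.39. The list level spanned 8.53 to 9.64 in obese sulindac tumours and 8.29 to 8.92 in control tumours. Endothelial markers were higher in 11 of 16 (median 0.22; 0.066 without obese sulindac Mouse_125 and 0.36 without obese sulindac Mouse_124). Lyve1, a hyaluronan receptor of lymphatic vessels, had 9.35, 9.98 and 11.54 in obese sulindac tumours, against 7.45, 9.68 and 9.84 in control tumours, with a difference of 1.15 ± 0.46, and Prox1, the lymphatic regulator that colon tumour epithelium also expresses, differed by 0.50. Lyve1 thus lay on the same side as Ccl21a and Mmrn1, and the part of vessel content in these differences was not tested. Vwf differed by 0.51 and Flt1, a receptor for vascular endothelial growth factor, by -0.54 ± 0.38. Fibroblast and matrix genes were higher in 14 of 20 (median 0.16, and 0.022 without control Mouse_27 and 0.33 without control Mouse_32). The collagen VI genes Col6a1 and Col6a2 differed by 0.76 ± 0.31 and 0.51 ± 0.29 and Thy1 by 0.64. The 6 lower members of the fibroblast list were Fap at -0.37, Tgfb3 at -0.20, Col1a1 at -0.12, Pdgfrb at -0.10, Lum at -0.083 and Fbln5 at -0.053. Neuronal and glial markers were even (6 of 13, median -0.052; -0.10 without control Mouse_27 and 0.052 without control Mouse_26), with Uchl1 at 0.77, Tubb3 at -0.26, Gfap at -0.28 and Snap25 at -0.57. Adipokine genes were higher in 9 of 13 (median 0.11, and 0.073 without obese sulindac Mouse_131 and 0.20 without obese sulindac Mouse_124). Among these 9 was Retnlb at 1.75, a goblet cell protein also counted in the antimicrobial and goblet cell lists. Nampt differed by 0.51 ± 0.22, the leptin receptor Lepr by 0.87 ± 0.42 and Retn by -0.38 ± 0.17. Lep and Adipoq did not exceed 5.36 in any of the 12 tumours, under the array medians.

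Subunits of the respiratory chain lay higher in 22 of 24 members by a small amount (median 0.16, and 0.11 without control Mouse_32 and 0.21 without obese sulindac Mouse_131). Without Mouse_X and Mouse_26, 24 of 24 were higher, and with median centring 21 of 24 were, with a median of 0.12. The differences ran from -0.087 for Uqcrc1 to 0.45 for Atp5o. Atp5o, a stalk subunit of ATP synthase, had lowest, median and highest levels of 14.67, 14.81 and 15.03 in obese sulindac tumours, against 14.14, 14.36 and 14.56 in control tumours. All 6 treated tumours lay above every control tumour, at a difference of 0.45 ± 0.12 (exact permutation p = 0.00216, limma adjusted p = 0.450). Sdhd, an anchor of succinate dehydrogenase, differed by 0.38 ± 0.16, Cox5a of complex IV by 0.32 ± 0.18 and Ndufs1 of complex I by 0.28 ± 0.16. Hypoxia and glycolysis genes were higher in 8 of 23 (median -0.11; -0.18 without obese sulindac Mouse_114 and -0.001 without obese sulindac Mouse_X), and 11 of 23 without Mouse_X and Mouse_26. The regulators Hif1a and Pfkfb3 lay higher, by 0.44 ± 0.20 and 0.91 ± 0.34, as did hexokinase 2 (Hk2) by 0.65, and the enzyme gene Pgam1 differed by -0.29.

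NRF2 targets of antioxidant defence were higher in 11 of 16 (median 0.20; 0.029 without control Mouse_20 and 0.32 without control Mouse_27; 9 of 16 higher with median centring). Mgst1, a membrane glutathione transferase, had 11.86, 12.84 and 13.33 in obese sulindac tumours, against 10.22, 11.22 and 12.32 in control tumours. In 4 of 6 treated tumours it exceeded all controls, and the difference was 1.50 ± 0.43 (exact permutation p = 0.00649). Obese tumours without the drug averaged 12.62, near the 12.72 of treated obese tumours, with controls at 11.22. Gsta2, Gstm3 and Srxn1 differed by 0.95, 0.71 and 0.41. The 5 lower members of the NRF2 list were Hmox1 at -0.60, Gclm at -0.195, Osgin1 at -0.14, Gsta3 at -0.02 and Gclc at -0.013. Nqo1, a classical target counted here in the aryl hydrocarbon receptor list, differed by -0.018. In drug conjugation and transport 15 of 23 were higher (median 0.16; 0.017 without control Mouse_26 and 0.28 without obese sulindac Mouse_129), but 9 of 23 without Mouse_X and Mouse_26. Abcb1a, which encodes the efflux pump P-glycoprotein, had 9.30, 10.40 and 12.06 in obese sulindac tumours, against 10.65, 11.75 and 14.78 in control tumours. In 4 of 6 treated tumours it lay below all controls, and the difference was -1.85 ± 0.79 (exact permutation p = 0.0498). Its close copy Abcb1b differed by -1.11 ± 0.56, the pump Abcg2 by 0.62 ± 0.50 and the oxygenase Fmo1, of a family that acts on sulfur drugs, by 0.58.

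Aryl hydrocarbon receptor targets were near balance (6 of 10, median 0.053; 0.012 without control Mouse_26 and 0.15 without control Mouse_17). Cyp1a1 differed by -0.23 and Cyp1a2 by -0.21 at levels below the array medians, Cyp1b1 by 0.12, Aldh3a1 by 0.31 and the feedback gene Tiparp by 0.29 ± 0.19. In cyclic GMP signalling 7 of 12 were higher (median 0.12; -0.024 without control Mouse_26 and 0.25 without obese sulindac Mouse_114). The phosphodiesterases Pde5a and Pde10a, described as targets of sulindac metabolites in cultured cells, differed by -0.13 ± 0.30 and -0.36 ± 0.65, and Pde2a by 0.52 ± 0.45. The kinases Prkg1 and Prkg2 differed by 0.26 and -0.85 ± 0.54, and their substrate Vasp by 0.31. Bile acid genes were near balance (9 of 15, median 0.017; -0.023 without control Mouse_32 and 0.21 without obese sulindac Mouse_114; 7 of 15 higher with median centring). Nr1h4, the bile acid receptor FXR, had 7.35, 9.64 and 10.29 in obese sulindac tumours, against 6.27, 7.51 and 8.61 in control tumours. In 4 of 6 treated tumours it exceeded all controls, at a difference of 1.61 ± 0.71 (exact permutation p = 0.0238). The related receptor Nr1i3 differed by 0.50, and Fabp6, Gpbar1 and Slc51b by 0.24, -0.14 and 0.15. The fatty acid carrier Fabp1 differed by -0.042.

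Genes of the unfolded protein response were higher in 9 of 21 (median -0.043; -0.090 without control Mouse_30 and 0.005 without obese sulindac Mouse_131), and the chaperone gene Canx differed by -0.30 ± 0.12, with 5 of 6 treated tumours below all controls. Pdia6, Hsp90b1 and Dnajb9 differed by -0.32, -0.26 and -0.36. Xbp1, the regulator of secretory capacity, was nearly level, at 13.77 to 14.66 in obese sulindac tumours and 13.86 to 14.53 in control tumours (difference 0.017, 95% interval -0.35 to 0.38, negative under other scalings), and Trib3 differed by 0.11. Insulin and IGF signalling was even (9 of 18, median 0.004; -0.13 without obese sulindac Mouse_125 and 0.13 without obese sulindac Mouse_129; 7 of 18 higher with median centring). Igfbp6, which binds IGF2, differed by 0.37 ± 0.15, the transcription factors Foxo1 and Foxo3 by -0.25 and -0.25, the kinase Akt1 by 0.21, and Igf1 ranged over 14.32 to 16.55 in obese sulindac tumours and 14.67 to 16.46 in control tumours (difference 0.017).

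**Figure D5:**
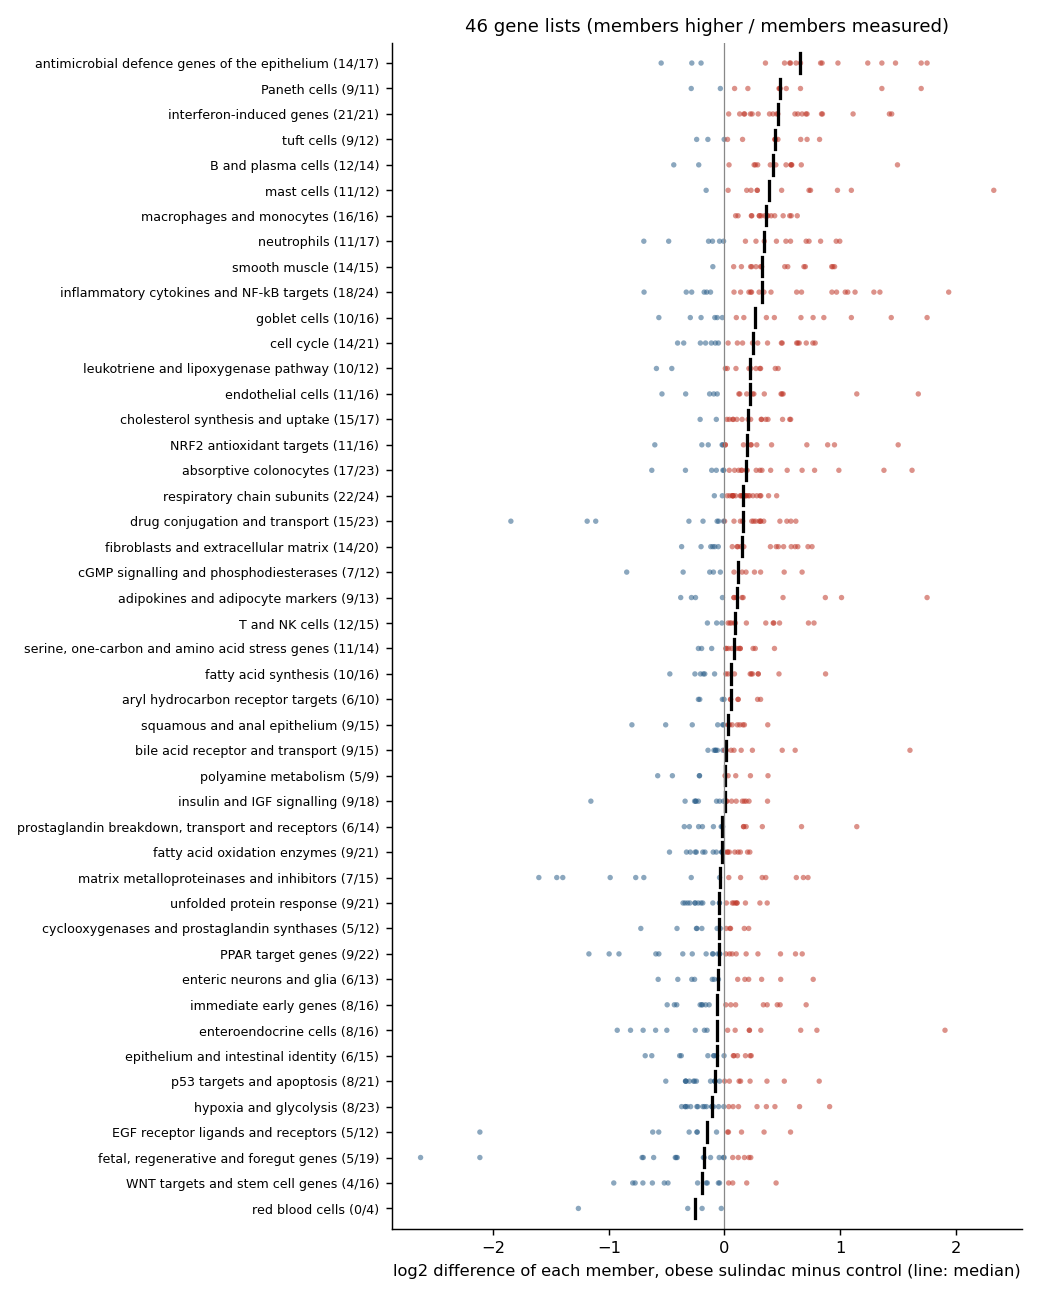
Each point is a measured member of 1 of 46 lists, placed by its log2 difference (obese sulindac minus control); red lies above 0 and blue below or at 0, black lines are list medians, and lists are ordered by median with the members higher out of those measured in brackets. Medians run from -0.26 for the 4 red blood cell genes to 0.66 for antimicrobial genes.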

How the data were processed

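RNA of 22 azoxymethane-induced colon tumours, 6 of obese mice given sulindac and 6 of controls among them, was isolated with TRIzol and hybridised to Clariom S arrays, per the labels' protocols. The deposited values are 2-decimal log2 levels of 22203 probe sets; Transcriptome Analysis Console 4.0 is named in the submitters' processing notes. How probes were summarized and normalized, and the log base, is not given in the sources used here, so the base of 2 rests on the range of values. No level above background is given for single probe sets, and the number of arrays limits the precision.

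Gene names came from the platform annotation: 19572 probe sets carried 1 symbol, 0 several, and 2631 are unnamed here. Of 19505 symbols, 55 had several probe sets and were represented by the one with the highest mean; 254 probe sets held values identical to another's. Groups were taken from titles and labels, which give no batch. Titles number the mice separately, except Mouse_X, whose number is not given.

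A model with 4 group means was fitted to all 22 arrays with limma 3.58.1 (lmFit, eBayes) in R 4.3.3, without a filter, for the contrast obese sulindac minus control. P-values are two-sided and Benjamini-Hochberg adjusted over 22203 probe sets, with a threshold of 0.05; the procedure was tested on simulated data. Values after ± are standard errors beside differences and SDs beside means, and intervals are 95%. Exact permutation tests used all 924 divisions of the 12 tumours, are two-sided, and are unadjusted over the genes for which they are printed. Most of these genes were chosen for a small p in the same tumours. Their exact p-values therefore describe the separation of the values and add no evidence to the limma result.

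Named genes are, in each direction, the 10 largest differences past the threshold, filled by smallest p, the 4 lowest-p members of each of 46 lists, and a fixed set of pathway genes, 225 in all. Predicted genes, Riken clones and sensory receptors were not named. Genes of the red blood cell, T cell and other lists without a probe set of that exact symbol (78 of 798) are not analysed here. Ccl21b, Ccl21c, Epcam, Cdx2 and Prox1 were added for context. Further members were added for the cell cycle, WNT, PPAR, goblet cell, neutrophil, squamous and respiratory chain lists. The same was done for the fibroblast, absorptive colonocyte, Paneth cell, epithelial identity, NRF2 and T and NK cell lists. The members and lists were chosen with earlier results of these data known, and list counts carry no test. Some genes are counted in more than 1 list, so lists are not separate results. Examples are Ang4, Itln1 and Reg3g (antimicrobial and Paneth cell lists) and S100a8 and S100a9 (antimicrobial and neutrophil lists). A list's level is the mean over its members. Alternatives were the 12 arrays alone, median centring, quantile normalization, a filter on dim probe sets, named probe sets only, a trended robust prior, array weights, leaving out each of the 12 mice, and leaving out the 2 arrays that stand apart, the last chosen after seeing the data. Promoters are RefSeq's, from 250 bases before to 50 after a start in GRCm38.p6, and were found for 177 of the 225 genes; 250 bases are printed.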

Additional observations from a re-analysis of the deposited data

Results flagged for a closer look

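Within groups, 1 tumour stood apart from its 5 group mates, with a gap to the nearest above 0.625 of the group's range, for 32 of 542 gene or list groups (5.9%); chance alone marks about 1 in 20. Most of these values came from a few tumours. Obese sulindac Mouse_114 stood apart for Zbtb14 at 9.01, Ptgs2 at 11.69, Hdc at 17.08, Btc at 8.69, Cpt1a at 10.92 and the list level of matrix metalloproteinases and inhibitors at 11.39. Obese sulindac Mouse_125 stood apart for Gsta2 at 9.33, Cd22 at 7.73, Defa20 at 7.43 and the list level of B and plasma cells at 8.52. Obese sulindac Mouse_129 stood apart for Cyp51 at 14.32 and Dnajb9 at 11.13. Obese sulindac Mouse_131 stood apart for Gstm3 at 11.37, Rgs13 at 9.19 and the list level of tuft cells at 7.41. Obese sulindac Mouse_X stood apart for Pdk4 at 13.82. Control Mouse_17 stood apart for Vil1 at 12.80. Control Mouse_20 stood apart for Irf3 at 10.97, Cbr1 at 12.71, the list level of fatty acid oxidation enzymes at 11.92 and the list level of cGMP signalling and phosphodiesterases at 10.32. Control Mouse_26 stood apart for Lta4h at 12.25, Me1 at 5.42, Pmaip1 at 9.02, Cd3e at 7.51, Myl9 at 11.28, Sat1 at 15.31 and the list level of enteroendocrine cells at 7.65. Control Mouse_27 stood apart for Zbtb14 at 8.46 and the list level of fatty acid synthesis at 10.50. Control Mouse_30 stood apart for Plau at 12.03 and Krt16 at 4.40. These are log2 levels, and the list levels are means over members. Leaving out the mouse that stood apart moved the difference by over 1.5 times or turned its sign for 14 of these 25 gene values, those of Cbr1 (-0.12 without, -0.24 with), Ptgs2 (-1.25 without, -0.72 with), Me1 (-0.89 without, -0.47 with), Gstm3 (0.35 without, 0.71 with), Dnajb9 (-0.24 without, -0.36 with), Cd3e (0.44 without, 0.78 with), Cd22 (0.28 without, 0.58 with), Hdc (1.27 without, 2.33 with), Rgs13 (0.18 without, 0.82 with), Defa20 (0.015 without, 0.20 with), Btc (-0.31 without, -0.57 with), Pdk4 (-1.01 without, 0.013 with), Cpt1a (0.011 without, -0.16 with) and Sat1 (-0.14 without, 0.10 with).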

How the results depend on the processing

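Under every alternative run, 0 probe sets passed the adjusted threshold, with smallest adjusted p values between 0.152 (without obese sulindac Mouse_114) and 0.790 (without obese sulindac Mouse_125). The filter on dim probe sets, which left 11102 to test, gave 865 at an unadjusted p under 0.05 (387 higher, 478 lower), and median centring gave 457 higher. The log2 ratio of spreads lay between -0.31 and 0.19 and the share of variance between groups between 9.20% and 10.9% when 1 mouse was left out, against a mean of 10.0% over the 462 divisions of 11 tumours. Of 4440 recomputed differences of the 225 named genes, 4371 kept their direction and 69, in 22 genes, did not. Without Mouse_X and Mouse_26 the sign turned for Ptges3 (0.018), Mthfd1 (0.17), Hemgn (0.068), Alox15 (0.022), Pdk4 (-1.36), Pde10a (0.068), Xbp1 (-0.024), Car4 (-0.19), Fabp1 (0.070), Odc1 (0.028) and Sat1 (-0.072). It turned with array weights for Hemgn (0.014), Pdk4 (-0.57), Nqo1 (0.085) and Xbp1 (-0.007), with median centring for Pdk4 (-0.025), Xbp1 (-0.022) and Igf1 (-0.022), and with quantile normalization for Pdk4 (-0.019) and Xbp1 (-0.006). With 1 mouse left out, differences spanned 0 for Mthfd1 (-0.30 to 0.005), Psat1 (-0.12 to 0.43), Slc4a1 (-0.33 to 0.014), Hemgn (-0.14 to 0.045), Hpgd (-0.78 to 0.26), Pdk4 (-1.01 to 0.41), Cpt1a (-0.25 to 0.011), Nqo1 (-0.21 to 0.17), Pde5a (-0.28 to 0.001), Axin2 (-0.39 to 0.00), Xbp1 (-0.070 to 0.11), Il1b (-0.48 to 0.87), Cxcl1 (-0.52 to 0.26), Car4 (-0.014 to 0.78), Lep (-0.036 to 0.23), Igf1 (-0.18 to 0.28), Fabp1 (-0.18 to 0.059) and Sat1 (-0.14 to 0.24). The cause was not tested. No paired analysis was possible because mouse numbers are not shared between the groups. With 6 tumours a group, a difference such as that of Il11 came with a standard error of 1.01 log2 units, and probe sets near the lowest levels have no stated background.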
